A study of Mus musculus with 6 samples.

Results

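The 8 genes described here encode the neuronal pentraxins and their receptor (Nptx1, Nptx2 and Nptxr), the secreted olfactomedins Olfm1 and Olfm2, and the AMIGO adhesion proteins (Amigo1, Amigo2 and Amigo3). They were taken by gene symbol from the 19179 genes of the deposited tables, and all 8 were found there. Nptx1, Olfm1 and Amigo2 were selected on their RPKM difference between the groups, since they are among the largest increases of the series, and the other 5 genes were added as their relatives. The differences of all 8 genes between the groups are therefore given as a description without a test.

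The study grew clones from single cells of 4T1, a line from a mammary tumor of a BALB/C mouse that is known to spread on its own to distant organs. The tissue label breast cancer stem cell defines the stem-labelled clones, and breast cancer cell defines the other clones. Wells received 1 cell each and clones were taken on day 14, with 10 clones of each kind collected and 3 batches from 3 independent experiments. RNA from 3 libraries per group was sequenced, with no treatment in either group. The labels do not say how a clone was assigned to its kind, whether 10 clones were pooled in a library, or which experiment a library came from. All clones derive from 1 cell line, and the spread between libraries may therefore be partly technical.

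Neuronal pentraxins are proteins of the synapse. Nptx1 and Nptx2 are secreted, Nptxr is anchored in the membrane, and together they form mixed complexes that gather AMPA-type glutamate receptors at synapses. Olfm1 is a secreted glycoprotein abundant in brain that binds the Nogo receptor, and Olfm2 is its close relative. AMIGO proteins are membrane proteins with leucine-rich repeats and an immunoglobulin domain that bind each other between cells. Amigo2 has been studied in adhesion of tumor cells to endothelium.

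Promoter windows, running from 250 bases before to 50 bases after an annotated gene start, were at hand in RefSeq (GRCm38.p6) for 5 of the 8 genes. Nptx1, Nptx2 and Nptxr are named only. Those of the AMIGO genes and of the olfactomedins are shown because in each family 1 gene was far higher in stem-labelled clones while its relatives stayed low. Capitals mark matches, on either strand, to 5 motifs: the cAMP response element (TGACGTCA), the AP-1 site (TGANTCA), the E-box (CACGTG), the SP1 site (GGGCGG) and the TATA box (TATAAA). The windows of Amigo2 (chr15:97247238-97247537, minus strand), Amigo1 (chr3:108186039-108186338, plus strand) and Amigo3 (chr9:108052909-108053208, plus strand), each 5′ to 3′, were:
Amigo2: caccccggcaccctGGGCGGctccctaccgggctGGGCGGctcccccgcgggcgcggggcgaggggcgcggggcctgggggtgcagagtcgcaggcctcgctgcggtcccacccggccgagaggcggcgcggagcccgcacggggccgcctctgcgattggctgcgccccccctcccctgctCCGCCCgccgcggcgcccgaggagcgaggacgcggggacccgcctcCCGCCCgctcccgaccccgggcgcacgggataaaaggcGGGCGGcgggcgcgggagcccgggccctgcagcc
Amigo1: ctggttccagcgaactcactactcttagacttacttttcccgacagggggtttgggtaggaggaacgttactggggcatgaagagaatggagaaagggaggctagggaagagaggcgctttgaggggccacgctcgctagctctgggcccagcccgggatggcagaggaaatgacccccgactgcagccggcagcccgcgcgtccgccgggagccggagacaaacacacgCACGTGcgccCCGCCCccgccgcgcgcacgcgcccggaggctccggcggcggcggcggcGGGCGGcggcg
Amigo3: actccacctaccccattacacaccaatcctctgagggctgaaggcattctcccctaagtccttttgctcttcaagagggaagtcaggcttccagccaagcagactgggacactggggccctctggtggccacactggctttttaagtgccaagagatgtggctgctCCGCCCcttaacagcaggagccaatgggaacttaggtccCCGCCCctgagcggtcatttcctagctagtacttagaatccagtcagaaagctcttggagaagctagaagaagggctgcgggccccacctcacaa
The Olfm1 windows at its upstream start (chr2:28192843-28193142, plus strand) and downstream start (chr2:28205439-28205738, plus strand), and the Olfm2 window at its innermost start (chr9:20726954-20727253, minus strand), were:
Olfm1 upstream: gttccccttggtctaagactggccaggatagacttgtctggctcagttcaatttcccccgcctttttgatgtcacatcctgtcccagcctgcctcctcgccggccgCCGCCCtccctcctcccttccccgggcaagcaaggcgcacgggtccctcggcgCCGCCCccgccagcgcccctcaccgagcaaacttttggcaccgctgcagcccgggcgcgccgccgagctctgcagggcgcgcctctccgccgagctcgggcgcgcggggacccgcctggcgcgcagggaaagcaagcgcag
Olfm1 downstream: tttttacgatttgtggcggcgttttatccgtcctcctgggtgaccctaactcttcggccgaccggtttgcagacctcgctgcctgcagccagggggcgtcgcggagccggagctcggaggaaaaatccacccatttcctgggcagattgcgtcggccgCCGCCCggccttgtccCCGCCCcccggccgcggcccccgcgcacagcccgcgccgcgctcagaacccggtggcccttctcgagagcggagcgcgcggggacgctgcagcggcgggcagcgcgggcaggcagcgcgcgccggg
Olfm2 innermost: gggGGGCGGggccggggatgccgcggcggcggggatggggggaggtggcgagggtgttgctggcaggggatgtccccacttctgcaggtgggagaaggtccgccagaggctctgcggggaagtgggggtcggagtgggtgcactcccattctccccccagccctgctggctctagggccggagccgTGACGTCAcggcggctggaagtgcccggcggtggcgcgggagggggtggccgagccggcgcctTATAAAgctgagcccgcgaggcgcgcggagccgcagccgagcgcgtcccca

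SP1 letters were the only motif of the 5 found in the windows of Amigo2, Amigo3 and Olfm1. Amigo2 held 5 matches, Amigo3 held 2, and each Olfm1 window held 2. SP1 letters occur in 35.7% of the 32851 mouse promoter windows of this length. Amigo1 had an E-box in addition to 2 SP1 matches, a motif held by 7.15% of windows. Of the 3 Olfm2 windows the innermost is shown for its cAMP response element, which 1.79% of windows hold. It also held TATA letters, as 13.6% of windows do, and 1 SP1 match. The outermost Olfm2 window held 7 SP1 matches and the middle one held none of the motifs. G and C made up 83.3% of the Amigo2 window, 69.0% of the Amigo1 window and 55.3% of the Amigo3 window, where the median of all windows was 52.7%. In the Olfm1 windows the share was 70.7% upstream and 72.3% downstream. The outermost, middle and innermost Olfm2 windows held 76.7, 52.0 and 74.7%. These matches describe letters in the windows and nothing about what binds there.

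Levels are in RPKM, reads per kilobase of gene length and scaled to a library total that the authors set. Whole reads behind each value were recovered from RPKM and gene length. Libraries of stem-labelled clones held 21196572 to 22838870 reads in genes and those of other clones 15357608 to 16830762. These were 0.658 to 0.757 of the authors' totals in stem-labelled clones and 1.23 to 1.53 in other clones. The scale of RPKM is thus not the same in both groups. Differences below are log2(RPKM + 1) in stem-labelled minus other clones ± SE of the limma fit to all genes, and the added 1 shrinks those of genes at low levels. Of the 8 genes, 5 passed the filter of at least 1 RPKM in at least 3 of the 6 libraries, and Nptx2, Olfm2 and Amigo3 did not. Amigo1 passed through the 3 stem-labelled libraries alone. Among all 10097 genes tested, 29.9% were called higher in stem-labelled clones and 25.4% lower at an adjusted p under 0.05 (limma, Benjamini-Hochberg). All 3 stem-labelled libraries lay above all 3 other libraries for 35.7% of genes tested and for 26.7% of all genes listed. The groups did not overlap for 6 of the 8 genes, but since 3 of these genes were chosen for this contrast nothing is read from that count.

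**Figure D1:**
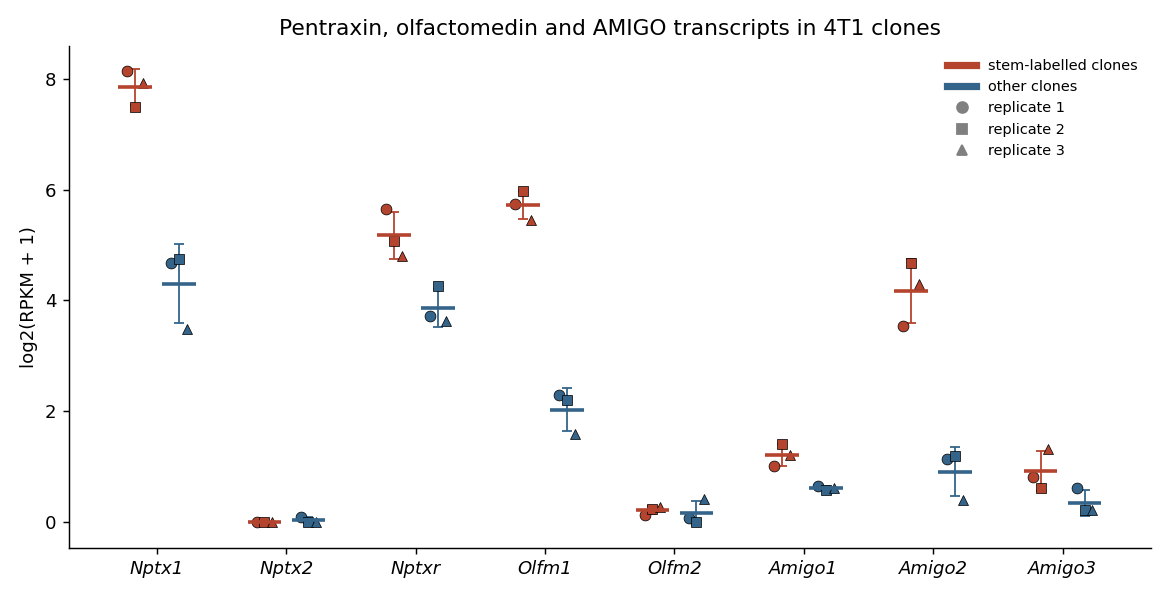
Level of each of the 8 genes on a log2(RPKM + 1) axis in the 3 stem-labelled libraries (red) and the 3 other libraries (blue). Symbols are replicates, horizontal lines are group means and vertical bars are SD. Nptx1, Nptxr, Olfm1 and Amigo2 are clearly apart between the groups, Amigo1 and Amigo3 lie low in both, and Olfm2 and Nptx2 lie near 0.

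Among the pentraxins, Nptx1 was the most abundant transcript and Nptx2 was nearly absent. Nptx1 (ENSMUSG00000025582, GRCm38 chromosome 11, 119538719 to 119547753) stood at 281, 180 and 242 RPKM in replicates 1 to 3 of stem-labelled clones, against 24.4, 25.9 and 10.1 RPKM in other clones. Every stem-labelled library was far above every other library, and replicate 3 was the lowest of the other clones. Its mean was 234 ± 51.2 RPKM in stem-labelled clones, a level above that of 99.1% of listed genes, and 20.2 ± 8.72 RPKM in other clones (SD, n = 3 each). The ratio of the means was 11.6 and the log2 difference 3.56 ± 0.36.

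Nptxr, the membrane-anchored partner of the secreted pentraxins, was also higher in stem-labelled clones, by a smaller step. Its levels (ENSMUSG00000022421, chromosome 15, 79786352 to 79804766) were 48.9, 32.7 and 26.8 RPKM in stem-labelled clones and 12.1, 18.2 and 11.3 RPKM in other clones. Replicate 1 was the highest stem-labelled library for both genes, and replicate 2 the highest of the other clones for both. The Nptxr means were 36.2 ± 11.5 RPKM in stem-labelled clones and 13.9 ± 3.76 RPKM in other clones (SD, n = 3 each), a ratio of 2.61 and a log2 difference of 1.31 ± 0.28. Nptxr shares 890 of its 5170 annotated exon bases with Npcd, a gene on the same strand that the tables do not list. In 50-base stretches, 17.1% of the longest Nptxr transcript also occurs in transcripts of other genes, so part of its reads cannot be assigned with certainty.

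Nptx2, the activity-regulated member of the family in neurons (chromosome 5, 144545902 to 144557478), had no read in any stem-labelled library. In other clones it had 2 reads, both in replicate 1. A count of 0 allows up to 3 reads. These would be 0.0367 RPKM in the library with the largest authors' total and 0.117 RPKM in that with the smallest. Expression of Nptx2 was therefore not detectable at this depth in 5 of the 6 libraries.

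The balance between the secreted and the membrane-anchored pentraxin could be read within each library, where the authors' totals cancel. Nptx1 and Nptxr are also of nearly equal gene length, 5217 and 5169 bases. The RPKM ratio of Nptx1 over Nptxr was 5.75, 5.49 and 9.02 in stem-labelled clones and 2.02, 1.42 and 0.893 in other clones. The ranges did not overlap, with means of 6.75 ± 1.97 in stem-labelled clones and 1.45 ± 0.566 in other clones (SD, n = 3 each). In replicate 3 of the other clones Nptxr was the more abundant of the pair. This ratio comes from the same contrast that chose Nptx1 and is a description.

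**Figure D2:**
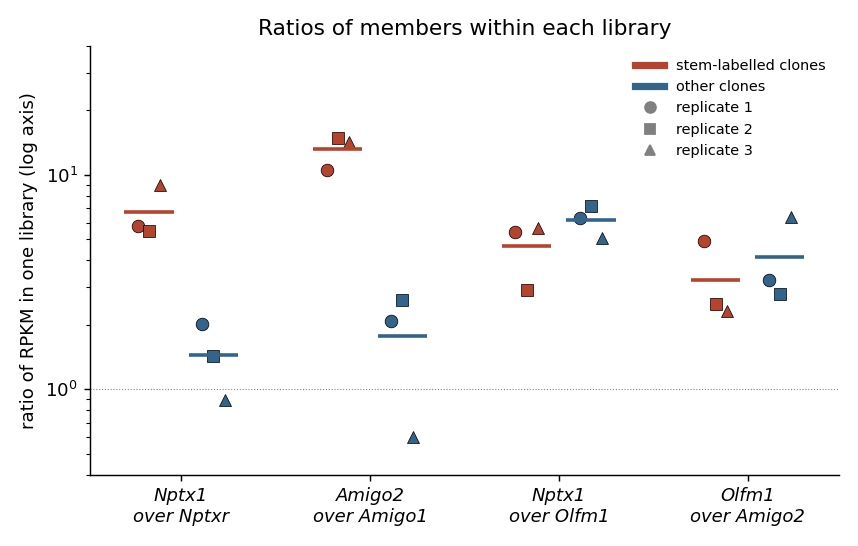
Ratios of RPKM between pairs of genes within each library, on a log axis, for stem-labelled clones (red) and other clones (blue). Symbols are replicates and lines are means. Nptx1 over Nptxr and Amigo2 over Amigo1 are higher in every stem-labelled library than in any other library, while Nptx1 over Olfm1 and Olfm1 over Amigo2 overlap between the groups.

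Of the olfactomedins, Olfm1 was plentiful in stem-labelled clones and Olfm2 was close to the detection limit in both groups. Olfm1 (ENSMUSG00000026833, chromosome 2, 28192992 to 28230736) stood at 52.1, 61.5 and 42.9 RPKM in stem-labelled clones and at 3.90, 3.60 and 1.98 RPKM in other clones. The groups were far apart, and Olfm1 varied less among stem-labelled libraries than any other of the genes with reads there, with a coefficient of variation of 17.8%. Means were 52.2 ± 9.30 RPKM in stem-labelled clones and 3.16 ± 1.03 RPKM in other clones (SD, n = 3 each). Their ratio was 16.5 and the log2 difference 3.69 ± 0.25. These levels rest on 16811 reads in stem-labelled clones and 395 in other clones. Olfm1 has annotated transcripts from both starts shown above, and the tables give 1 value for all of them.

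Olfm2 (chromosome 9, 20667986 to 20728219) had 4, 8 and 10 reads in stem-labelled clones, or 0.0918, 0.172 and 0.203 RPKM. In other clones it had 1, 0 and 5 reads, or 0.0548, 0 and 0.325 RPKM. The groups overlapped, with both the lowest and the highest value in other clones. The 95% exact Poisson interval was 13.8 to 33.3 for the 22 summed reads in stem-labelled clones and 2.20 to 13.1 for the 6 in other clones, and covers counting error only.

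Of the AMIGO genes, Amigo2 was much higher in stem-labelled clones. Amigo1 and Amigo3 were also higher there in deposited RPKM, by a smaller ratio, and stayed at or below 1.66 RPKM in every library. Amigo2 (ENSMUSG00000048218, chromosome 15, 97244074 to 97247287) stood at 10.6, 24.6 and 18.6 RPKM in stem-labelled clones and 1.20, 1.29 and 0.311 RPKM in other clones. As for Nptx1 and Olfm1, replicate 3 was the lowest of the other clones, and here it rested on 9 reads. Means were 17.9 ± 7.03 RPKM in stem-labelled clones and 0.932 ± 0.540 RPKM in other clones (SD, n = 3 each). The ratio of the means was 19.2, the highest of the 8 genes, and the log2 difference 3.26 ± 0.33. With a pseudocount of 0.1 in place of 1 the log2 difference was 4.23.

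Amigo1 (ENSMUSG00000050947, chromosome 3, 108186335 to 108192286) stood at 1.001, 1.66 and 1.31 RPKM in stem-labelled clones and 0.576, 0.493 and 0.520 RPKM in other clones. The groups did not overlap, and replicate 2 was the highest stem-labelled library for Amigo1 as for Amigo2 and Olfm1. The ratio of the means was 2.50, close to the 2.61 of Nptxr. At this low level the added 1 shrinks the log2 difference, which was 0.59 ± 0.18. After correcting for length and GC content the log2 difference was -0.04, which is small against that SE.

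Amigo3, which can take the place of Lingo1 in Nogo receptor complexes (chromosome 9, 108053159 to 108055701), stood at 0.746, 0.531 and 1.49 RPKM in stem-labelled clones. In other clones it stood at 0.528, 0.158 and 0.156 RPKM. The lowest stem-labelled and the highest other library were all but equal, with 41 and 16 reads. The ratio of the Amigo3 means was 3.29, on 217 reads in stem-labelled and 25 in other clones. Without the filter its log2 difference was 0.57 ± 0.22, and 0.365 when replicate 3 of the stem-labelled clones was left out. Amigo3 lies within the span of Rnf123 on the opposite strand with no shared exon base, and the strand used in counting is not given in the sources used here.

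Amigo2 held a larger share of the AMIGO transcripts in stem-labelled clones. It made up 85.8, 91.8 and 86.9% of the summed AMIGO RPKM in stem-labelled clones, and 52.1, 66.4 and 31.5% in other clones. The RPKM ratio of Amigo2 over Amigo1 was 10.6, 14.8 and 14.2 in stem-labelled clones and 2.08, 2.61 and 0.599 in other clones. Neither measure overlapped between the groups. Both come from the same contrast that chose Amigo2 and are a description. In other clones they rest on 41, 46 and 9 reads of Amigo2. The ratio of Amigo1 over Amigo3 did overlap, at 1.34, 3.12 and 0.877 in stem-labelled clones and 1.09, 3.12 and 3.33 in other clones.

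Ratios were also taken between the 3 genes selected for their large differences. Nptx1 over Olfm1 was 4.65 ± 1.50 in stem-labelled clones and 6.19 ± 1.05 in other clones. Olfm1 over Amigo2 was 3.25 ± 1.46 in stem-labelled clones and 4.14 ± 1.95 in other clones (RPKM ratios within libraries, SD, n = 3 each). For both ratios the groups overlapped, and nothing is read from this, since the selection favours genes with differences of like size. In order of level the genes ran Nptx1, Olfm1, Nptxr, Amigo2, Amigo1, Amigo3, Olfm2 and Nptx2 in stem-labelled clones, with overlapping ranges for Olfm1 and Nptxr and for Amigo1 and Amigo3. In other clones Nptxr stood above Olfm1, and the rest kept this order. There the ranges of Nptx1 and Nptxr overlapped, as did those of Amigo2 and Amigo1, of Amigo1 and Amigo3, of Amigo3 and Olfm2, and of Olfm2 and Nptx2.

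Fold changes in these libraries followed gene length, and the genes were read against that trend. Of genes tested in the length range of Nptx1 and Amigo1 (5197 to 6336 bases), 42.6% were called higher in stem-labelled clones, with a median log2 difference of 0.46. Amigo1, at 0.59, lay near that median and Nptx1, at 3.56, far above it. The shares were 37.1% in the range of Nptxr (4339 to 5197 bases), 28.4% in that of Olfm1 (3010 to 3634 bases) and 21.3% in that of Amigo2 (2426 to 3010 bases). After the correction for length and GC content the log2 differences were 3.27 for Nptx1, 1.51 for Nptxr, 3.68 for Olfm1 and 3.06 for Amigo2. These 4 genes thus kept most of their difference or gained, while Amigo1 lost it. For Amigo1, at low levels, this depends on the added 1. With a pseudocount of 0.1 and no correction its log2 difference was 1.15. Its place against the length trend was not tested at that pseudocount.

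**Figure D3:**
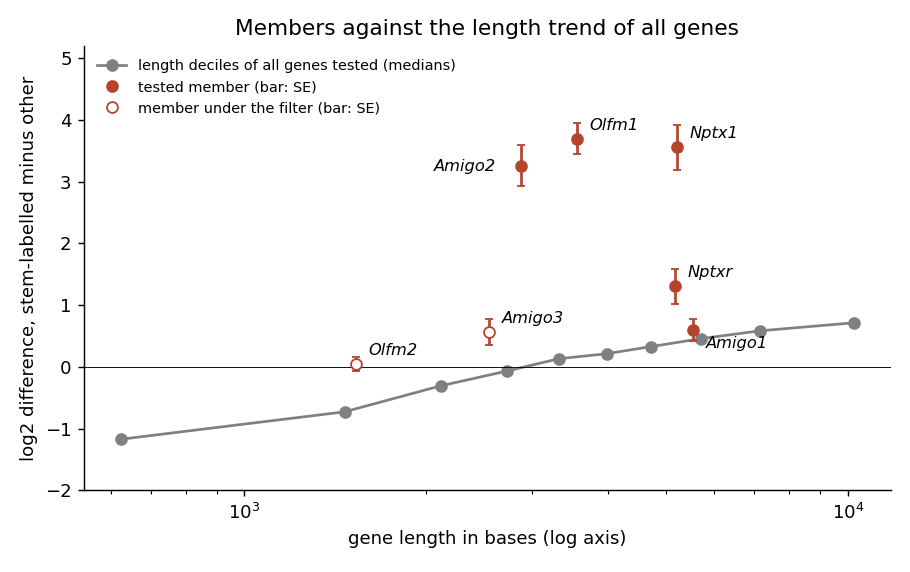
Log2 difference (stem-labelled minus other, ± SE) of 7 of the 8 genes against gene length on a log axis; Nptx2, with 2 reads in all, is left out. The grey line joins the medians of the 10 length deciles of all genes tested, placed at the median length of each. Olfm1, Amigo2 and Nptx1 lie well above the line, Nptxr less so, and Amigo1 lies close to it.

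Rescaling each library to its reads summed over genes raised the median difference of all genes tested to 0.86, against 0.11 on the deposited scale. On that scale the differences were 4.46 for Nptx1, 2.20 for Nptxr, 4.49 for Olfm1, 1.02 for Amigo1 and 3.89 for Amigo2. Relative to the median of all genes, Amigo1 was then near that median and the other 4 genes remained above it.

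**Figure D4:**
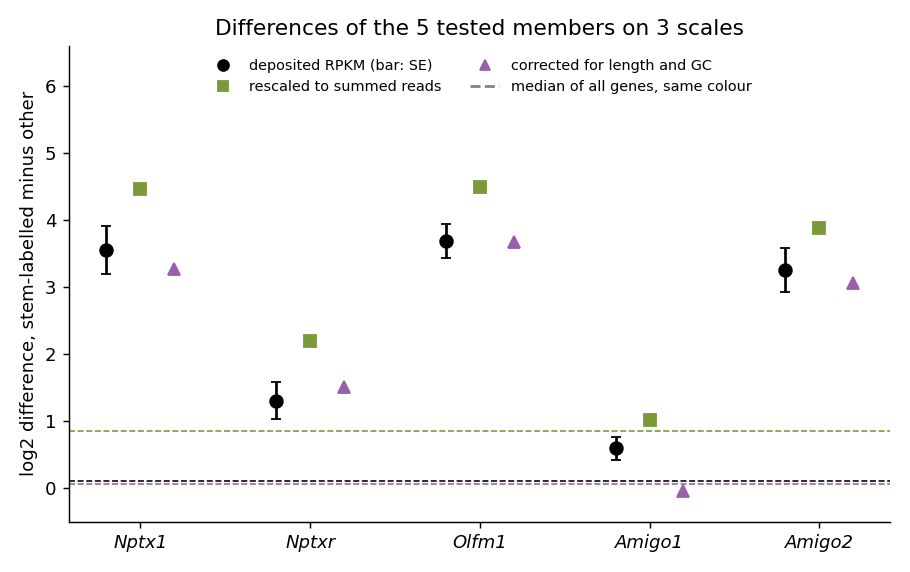
Log2 difference (stem-labelled minus other) of the 5 tested genes on the deposited RPKM scale (black, ± SE), after rescaling to reads summed over genes (green) and after correction for length and GC content (purple). Dashed lines are the medians of all genes tested on the same scales, 0.11, 0.86 and 0.07. Nptx1, Olfm1, Amigo2 and Nptxr lie above the median on all 3 scales. Amigo1 lies near it on the rescaled scale (1.02) and on the corrected scale (-0.04).

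Genes related to these families or reported to act with them were read from the same fit. Of 16 other pentraxins and proteins with an olfactomedin-like domain, latrophilins included, 7 were listed and 2 tested, and both rose in stem-labelled clones. Adgrl2, a latrophilin that carries such a domain and binds teneurins, stood at 9.11 ± 2.74 RPKM in stem-labelled clones and 1.27 ± 0.0432 RPKM in other clones, a log2 difference of 2.12 ± 0.22 (adjusted p = 0.000149). Its relative Adgrl1 stood at 5.59 ± 1.22 RPKM in stem-labelled clones and 1.002 ± 0.237 RPKM in other clones, with a difference of 1.71 ± 0.21 (adjusted p = 0.000245). Adgrl1 stood at 0.831, 1.27 and 0.902 RPKM in other clones. It would not have passed the filter without the stem-labelled libraries, so its call is not read as support. Both were also called higher after the length and GC correction, at 1.13 and 1.61, where 25.9% of all genes were. Olfml2b had 124 reads in stem-labelled and 14 in other clones and was not tested.

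Of 17 possible partners and processing enzymes, 11 were listed and 5 tested, of which 4 rose, 0 fell and 1 did not pass, with a median difference of 0.93 (all genes tested 0.11). None was lower at an unadjusted p under 0.05 by limma either. Bace1, the beta-secretase of the amyloid precursor, stood at 15.1 ± 1.71 RPKM in stem-labelled clones and 2.30 ± 0.327 RPKM in other clones (2.29 ± 0.19, adjusted p = 0.000117). Adam17, the sheddase that releases Nptxr from the membrane, rose by 1.26 ± 0.25 (adjusted p = 0.00243), and this was 0.64 after the correction. Pdpk1, a kinase that binds Amigo2 in endothelium, rose by 0.93 ± 0.24 (adjusted p = 0.00898) but stood at 0.09 after the correction (adjusted p = 0.686). Rcn2, a reticulum protein that binds taipoxin with the pentraxins, rose by 0.73 ± 0.22 (adjusted p = 0.0191). Rtn4r, the Nogo receptor, stood at 3.88 ± 0.733 RPKM in stem-labelled clones and 3.75 ± 1.21 RPKM in other clones (0.06 ± 0.24, adjusted p = 0.850), and was called higher at 1.20 after the correction. The AMPA receptor genes Gria1 to Gria4 were not listed.

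Of 37 other leucine-rich repeat surface proteins, 16 were listed and 4 tested, with 2 higher, 1 lower and 1 not called. Lrig1, a negative regulator of receptor tyrosine kinases, stood at 71.4 ± 11.5 RPKM in stem-labelled clones and 12.7 ± 1.94 RPKM in other clones (2.40 ± 0.22, adjusted p = 0.000119). Lrig3 stood at 1.78 ± 0.157 RPKM in stem-labelled clones and 0.423 ± 0.218 RPKM in other clones (0.98 ± 0.18). It passed the filter through the stem-labelled libraries alone, so its call is not read as support. Lrfn4, a synaptic adhesion molecule, fell by 2.17 on the log2 scale (SE 0.45, adjusted p = 0.00292), with 54.2, 39.2 and 32.4 RPKM in stem-labelled clones and 386, 100.3 and 171 RPKM in other clones. The tested leucine-rich repeat genes moved both ways.

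Of 35 other synaptic organizers, 21 were listed and 10 tested, of which 6 rose, 0 fell and 4 did not pass, with a median difference of 0.87. The glypican Gpc4 was lower at an unadjusted p of 0.0451 (limma, adjusted p = 0.0751). With the length and GC correction 4 of the 10 genes rose and Gpc4 fell. Nlgn2, the neuroligin of inhibitory synapses, stood at 9.09 ± 1.38 RPKM in stem-labelled clones and 1.88 ± 0.474 RPKM in other clones (1.81 ± 0.21, adjusted p = 0.000200). Thbs1, the matrix protein thrombospondin 1, rose by 1.82 ± 0.32 (adjusted p = 0.00128) and Ptprf, a receptor phosphatase, by 1.37 ± 0.37 (adjusted p = 0.0117). The tested members of these 4 lists are few, and their shares stand beside the 29.9% of all genes called higher. Calls also followed gene length, and the lists were not matched for it. Of tested genes of 8322 bases or more, as Adgrl1, Adgrl2, Pdpk1 and Ptprf are, 59.5% were called higher. From 6337 to 8322 bases, the range of Adam17 and Bace1, this was 51.4%. Nlgn2, Thbs1 and Lrig1 lie in the range with 42.6%, and Rtn4r in that with 15%. Whether the lists exceed such shares was not tested.

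Markers of neurons were low in both groups. Of 17 neuronal markers 8 were listed and 0 passed the filter, and their summed level was 0.663 to 1.25 RPKM in stem-labelled libraries and 1.14 to 2.57 RPKM in other libraries. The most-read of them, the microtubule protein gene Map2, had 875 reads in stem-labelled and 189 in other clones, or 0.572 ± 0.411 RPKM and 0.328 ± 0.153 RPKM. Tubb3, the neuronal tubulin, went the other way with 6 reads in stem-labelled and 70 in other clones, or 0.0358 ± 0.0195 RPKM and 1.05 ± 0.530 RPKM. In other clones its mean was thus near that of Amigo2, 0.932 RPKM. Rbfox3, Snap25, Dcx and Gap43 were not listed. Rest, the repressor that keeps neuronal genes off outside the nervous system, stood at 3.42 ± 1.58 RPKM in stem-labelled clones and 1.01 ± 0.438 RPKM in other clones (1.11 ± 0.28, adjusted p = 0.00772), and missed the threshold after the correction (0.34, adjusted p = 0.280).

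All 6 libraries carried the epithelial transcripts of the 4T1 line, with Krt8, Krt18, Krt7, Epcam and Cdh1 summing to 924 to 1423 RPKM in stem-labelled clones and 2035 to 3609 RPKM in other clones. The keratins carry these sums and the genes did not move together: Cdh1 was called higher (2.04, adjusted p = 0.000149), Krt18 and Krt7 lower (-1.79 and -2.72; adjusted p = 0.00335 and 0.000947), and Epcam and Krt8 were not called (-0.03 and -0.90; adjusted p = 0.917 and 0.0565). After the length and GC correction Krt18 missed the threshold (-0.70, adjusted p = 0.0675) and Krt8 stood at 0.03. Of 6 leukocyte markers Ptprc had 2 reads in stem-labelled and 3 in other clones, while Cd68, also a lysosomal protein of other cells, averaged 29.0 RPKM in stem-labelled and 16.4 RPKM in other clones. Cd68 was not called (0.87, adjusted p = 0.203) but was called higher after the correction (1.59, adjusted p = 0.0332). Adgre1 and Cd3e were not listed. Summed markers were 1.68 to 3.39 RPKM in stem-labelled and 0.396 to 1.01 RPKM in other clones for fibroblasts, almost all of it Pdgfra. For glia they were 2.80 to 3.15 RPKM in stem-labelled and 0.833 to 2.69 RPKM in other clones, almost all of it Mbp. Pdgfra was called higher (1.10, adjusted p = 0.00325) and missed the threshold after the correction (0.15, adjusted p = 0.57). Mbp was not called (0.63, adjusted p = 0.0584). What part such transcripts had in the values of the 8 genes was not tested. The bulk values cannot tell a change in every cell from a change in the share of cells that carry a transcript.

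The genes most like Nptx1 over the 6 libraries, by Pearson correlation of log2(RPKM + 1) among 5949 genes at a mean of at least 5 RPKM, were Sdhaf2, Dnajb6 and Pmp22. Their r values were 0.998, 0.997 and 0.997. For Olfm1 they were Fuca2, Zfand2a and Ece1 (r of 0.999, 0.998 and 0.998), and for Amigo2 Tapbpl, Osbpl2 and Clcn7 (r of 0.999, 0.997 and 0.997). The libraries fall into the 2 groups, which carry most of this likeness, and 32, 59 and 22 genes had an r over 0.99 to Nptx1, Olfm1 and Amigo2. The differences of these genes were smaller, from 0.53 for Dnajb6 to 2.13 for Zfand2a. After the length and GC correction Dnajb6 stood at -0.24 and was not called (adjusted p = 0.256, limma), while the rest were still called higher.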

How the data were processed

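The authors deposited 1 table per library with RPKM for 19179 genes, Ensembl identifiers, coordinates and a gene length. The submitters' processing notes name Bowtie2 2.0.6, TopHat2 2.0.9 and mm9 without a role for each; the counting program, strand and library total are not given in the sources used here. Of the identifiers, 99.6% were in GENCODE M21, and 99.4% of those lay within 50 kb of its GRCm38 position, so GRCm38 is the build named. RPKM times gene length gave whole multiples of 1 step per library (tolerance 0.01) for 100.0% of values, which returned the reads. For a gene 1 kilobase long, a single read equals 0.0311 to 0.0993 RPKM.

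Tissue labels gave the groups and sample titles the replicate numbers. limma 3.58.1 in R 4.3.3, with a variance trend, was fitted to log2(RPKM + 1) of genes with at least 1 RPKM in at least 3 libraries, with two-sided tests and Benjamini-Hochberg adjustment over all 10097 genes. Genes under the filter have an SE from the fit without it. The test was checked on simulated data that held no length trend, so that check does not cover calls that follow gene length. The correction subtracted from each library's deviations a fit on natural splines (5 degrees of freedom each) of log2 length and of GC content. Genes, lists and rules were chosen with earlier results of these data known. Named are the 8 genes, up to 3 called genes per direction and list with the smallest p, 3 genes most alike to each of Nptx1, Olfm1 and Amigo2, tested genes within 50 kb, and Rest. Rcn2, Rtn4r, Olfml2b, Gpc4 and the markers shown were picked after their values were seen.

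Alternatives were the replicate block, leaving out each library among the same genes, rescaling to summed reads, upper-quartile scaling, a pseudocount of 0.1, no filter, a mean of at least 5 RPKM, the correction, limma without the trend, and limma-voom with trimmed-mean scaling on the reads recovered. Protein sequences were not used here, and some related or neighbouring genes are not reported here.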

Additional observations from a re-analysis of the deposited data

How the results depend on the processing

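Genes called numbered 5577, with 3014 higher and 2563 lower in stem-labelled clones. With a mean of at least 5 RPKM, which tests fewer genes, 3477 were called and 1405 were higher. On rescaling to summed reads 5926 were higher and 1245 lower. Same-numbered libraries showed no sign of pairing (correlations of their deviations from group means -0.125, 0.026 and -0.085). So few libraries cannot exclude that replicate numbers mark shared experiments. A fit with the replicate block called 5212 genes. In this balanced design the block cannot move a difference between the groups. On rescaling the log2 differences of Nptx1, Nptxr, Olfm1, Amigo1, Amigo2 and Amigo3 were 4.46, 2.20, 4.49, 1.02, 3.89 and 0.90. With a pseudocount of 0.1 those of Olfm1, Olfm2, Amigo1, Amigo2 and Amigo3 were 4.04, 0.42, 1.15, 4.23 and 1.45, since less is added to low values. With limma-voom on the recovered reads Amigo1 stood at 1.22 and Amigo2 at 4.29. Amigo1 fell to -0.042 with the length and GC correction, with or without the replicate block. The cause was not tested. Leaving out 1 library moved Olfm2 between -0.034 (without replicate 2 of the other clones) and 0.17, on 28 reads in all, and kept Nptx1 between 3.14 and 3.78, Olfm1 between 3.47 and 3.83 and Amigo2 between 3.00 and 3.58. Amigo3 ranged from 0.365 (without replicate 3 of the stem-labelled clones) to 0.716.

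With a mean of at least 5 RPKM the genes called higher were 1 of the related pentraxin and olfactomedin list, 2 of the partners and 1 of the leucine-rich repeat list. With no filter 2 leucine-rich repeat genes were lower. Among the synaptic organizers 1 gene was lower with the correction, with or without the replicate block, and leaving out each library gave 0 to 1. Depth limits Nptx2, Olfm2 and Amigo3 most.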

Other observations

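Genes beside the 8 did not share one direction. Of 17 tested genes within 50 kb, 5 were called higher and 7 lower in stem-labelled clones, where 29.9% and 25.4% of all genes tested were. Among the 5, Gm16576 (beside Nptxr) and Bsn (beside Amigo3) passed the filter through the stem-labelled libraries alone. Both missed the threshold after the length and GC correction (adjusted p = 0.0917 and 0.115). Beside Nptxr, Cbx6, a Polycomb chromobox gene 19130 bases away on the same strand, stood at 27.7 ± 2.14 RPKM in stem-labelled clones and 8.29 ± 1.36 RPKM in other clones (log2 difference 1.63, adjusted p = 0.000274), and Sun2, a nuclear envelope gene, rose by 1.21 (adjusted p = 0.000940). Dnal4, a dynein light chain 8503 bases from Nptxr, fell by 1.18 on the log2 scale (adjusted p = 0.00178). Dnal4 missed the threshold after the correction (-0.52, adjusted p = 0.051), while Cbx6 and Sun2 were still called higher. Beside Nptx1 the 1 tested gene, Endov, fell by 0.63 on the log2 scale (adjusted p = 0.0239).

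Beside Amigo2 the 1 tested gene, Pced1b, which overlaps 58 of its 3163 exon bases on the opposite strand, stood at 7.20 ± 2.81 RPKM in stem-labelled clones and 4.50 ± 1.82 RPKM in other clones (0.57, adjusted p = 0.135). Pced1b was called higher after the length and GC correction (0.91, adjusted p = 0.0207). None of the 3 tested genes beside Amigo1 was called by limma; Cyb561d1, Atxn7l2 and Gnai3 had unadjusted p of 0.0561, 0.0693 and 0.183. Beside Amigo3, Ip6k1 rose by 1.40 (adjusted p = 0.000395) and Gmppb, 358 bases away, fell by 0.998 on the log2 scale (adjusted p = 0.00281). No tested gene lay within 50 kb of Olfm1 or Nptx2.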
